A study of Mus musculus with 9 samples.

Results

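The 48 genes described here encode the machinery of mitosis: the kinases that start it, the kinetochore and its checkpoint, the proteases and ubiquitin ligase parts that release sister chromatids, the spindle motors, the cytokinesis proteins and the condensins. They were taken by gene symbol from a list of mitosis genes, and the list and its roles were chosen with earlier results of these data known. Each symbol stood on exactly 1 entry in each file, and all 48 were among the 14193 genes that passed the filter on low counts, of 54532 gene entries in all.

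The libraries were bulk RNA-seq of tumours that B16-F10 cells, a mouse melanoma line, formed under the skin of C57BL/6 mice and that were removed on day 16. There were 3 groups of 3 libraries. Control tumours came from cells with a control short hairpin RNA (labelled shcontrol, genotype WT), and the others from cells with 1 of 2 hairpins against Fbxo38, labelled shFBXO38#1 (hairpin 1) and shFBXO38#2 (hairpin 2). The product of Fbxo38 is an F-box protein, which picks the targets of a ubiquitin ligase. The treatment label is none in every group. The genotype labels of the 6 hairpin libraries run from FBXO38 to FBXO43 knockdown, so the groups were taken from the titles. The age and sex of the mice, the vector and its promoter, and whether a line was 1 clone are not stated in the labels. Nothing in the labels says that libraries of a group came from separate mice, so p-values measure only the spread between these libraries, which may be technical. In bulk tumour RNA, fewer dividing cells and less of an mRNA in each dividing cell cannot be told apart.

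Cdk1 with cyclin B drives a cell into mitosis, and the Aurora and Polo kinases separate the centrosomes, build the spindle and correct faulty attachments. Kinetochores that are not attached keep the spindle checkpoint on. When the last one is attached, Cdc20 switches on the anaphase promoting complex, a ubiquitin ligase that destroys securin and cyclin B, and separase then cuts the cohesin rings that hold sister chromatids together. Most of these genes are transcribed late in the cell cycle, when the DREAM repressor complex gives way to B-Myb and then FoxM1. Much of that control acts through a short promoter element, the cell cycle genes homology region (CHR), and through CCAAT boxes bound by NF-Y.

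That shared promoter design is visible in the sequences. RefSeq promoter windows (build GRCm38.p6), which run from 250 bases before to 50 bases after a gene's start, matched 40 of the 48 genes by symbol, in 43 windows. Ccna2, Cdc25c, Foxm1, Aurkb, Incenp, Tpx2, Kif20a and Smc4 had none. Searched on both strands were 4 CHR forms: the classic form TTTGAA, its near form TTTAAA, and the rarer spellings TTCGAA and then CTTGAA, of which the second and the third read the same on either strand. They were found between 100 bases before and 50 after the start in 35 of 43 windows (81.4%), beside 18.2% of all 32851 windows. Over the whole window they were found in 39 of 43 (90.7%), beside 37.3% of all. CCAAT, also on both strands, was found in 33 of 43 whole windows (76.7%), beside 37.4%. Both a CHR form and CCAAT lay within the stretch nearer the start in 27 of 43 windows (62.8%), beside 4.37% of all. These are letter matches, not measured binding.

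The 9 promoters below are shown because their genes lead the results that follow. The first 5 belong to genes whose mean was lower than control with both hairpins, and the last 4 to genes that were higher with hairpin 2 than control or than hairpin 1. Each runs from 100 bases before to 30 after the RefSeq start, 5′ to 3′ on the gene's strand, with CHR forms (TTCAAA and similar being the reverse strand) and CCAAT or ATTGG in capitals.
Cdk1: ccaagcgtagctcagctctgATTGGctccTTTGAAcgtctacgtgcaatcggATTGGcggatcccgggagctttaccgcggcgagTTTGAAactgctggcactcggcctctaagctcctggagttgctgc
Plk1: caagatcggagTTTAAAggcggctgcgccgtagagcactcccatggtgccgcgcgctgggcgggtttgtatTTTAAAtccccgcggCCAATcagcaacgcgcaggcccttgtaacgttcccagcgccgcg
Aurka: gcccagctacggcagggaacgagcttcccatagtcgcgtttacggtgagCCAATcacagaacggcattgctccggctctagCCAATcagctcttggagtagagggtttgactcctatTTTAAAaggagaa
Ccnb1: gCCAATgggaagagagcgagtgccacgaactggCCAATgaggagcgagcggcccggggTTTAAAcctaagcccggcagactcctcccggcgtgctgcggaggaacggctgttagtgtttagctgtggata
Cdc20: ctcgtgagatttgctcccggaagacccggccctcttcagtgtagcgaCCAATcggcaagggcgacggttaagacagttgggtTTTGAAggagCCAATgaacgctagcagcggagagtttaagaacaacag
Kif11: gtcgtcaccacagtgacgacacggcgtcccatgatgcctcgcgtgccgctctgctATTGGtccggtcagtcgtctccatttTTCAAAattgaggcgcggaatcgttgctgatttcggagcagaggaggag
Top2a: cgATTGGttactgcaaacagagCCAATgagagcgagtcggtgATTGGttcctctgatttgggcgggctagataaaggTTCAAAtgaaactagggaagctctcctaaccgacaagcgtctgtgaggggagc
Cenpf: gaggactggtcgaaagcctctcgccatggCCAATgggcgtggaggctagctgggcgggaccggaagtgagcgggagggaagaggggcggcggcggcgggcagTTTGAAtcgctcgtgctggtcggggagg
Kif20b: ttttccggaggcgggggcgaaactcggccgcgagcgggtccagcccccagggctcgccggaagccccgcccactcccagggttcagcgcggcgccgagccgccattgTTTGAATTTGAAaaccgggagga
The Cdk1 stretch is chr10:69352883-69353012 (minus strand) and that of Plk1 is chr7:122159335-122159464 (plus strand). Aurka is shown at chr2:172370541-172370670 (minus strand), Ccnb1 at chr13:100786457-100786586 (minus strand) and Cdc20 at chr4:118437314-118437443 (minus strand). Kif11 is at chr19:37376282-37376411 (plus strand), Top2a at chr11:99024160-99024289 (minus strand), Cenpf at chr1:189688057-189688186 (minus strand) and Kif20b at chr19:34922258-34922387 (plus strand). All 9 stretches hold a CHR form, among them genes that were lower and genes that were higher with hairpin 2. Cdk1 and Plk1 hold 2 each, and the 2 in Kif20b follow each other without a gap. For 8 of the 9, bases just after the RefSeq start were also found in the leading part of a GENCODE M21 transcript. Aurka is the exception: its stretch lies wholly upstream of the gene as annotated there, which begins at base 172370535, so its CHR form lies before that start. The RefSeq and GENCODE starts need not coincide in the others: for Plk1, Kif11 and Kif20b the RefSeq start lies shortly before the annotated gene. Top2a holds 3 CCAAT boxes, counting both strands, and the Kif20b stretch holds none.

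Library totals ran from 15322163 to 17342554 counts, and each mitosis gene had between 179 and 10344 counts in each library. Fbxo38, the targeted gene, stood at 21.7, 31.3 and 30.8 CPM (counts scaled to equal library size) in control, 35.1, 20.99 and 22.03 in the libraries labelled hairpin 1 and 20.96, 11.4 and 11.9 with hairpin 2. The libraries labelled hairpin 1 thus overlapped control, and the hairpin 2 values all lay below control; neither passed the threshold (adjusted p = 0.9999 and 0.254, edgeR). Hairpin 1 therefore stands in what follows for the libraries labelled hairpin 1. Replicate 1 of hairpin 1 and replicate 2 of hairpin 2 lay at the 2 ends of the first principal component, which held 35.8% of the variance. The first had the most fibroblast marker RNA: the 9 markers summed to 3421, 278 and 799.6 CPM in the libraries labelled hairpin 1, 228, 455 and 194 in control and 309, 518 and 1490 with hairpin 2. The second had the most globin and other erythroid marker RNA, 21462 CPM over 5 markers, where the other libraries had 421 to 4967. The 8 melanoma markers summed to 22645 to 32965 CPM, 17 leukocyte markers to 39.7 to 422 and 7 endothelial markers to 160.7 to 318 in the 9 libraries. Of 4 keratinocyte markers, Krt5, Krt14 and Krt1 were at 0 in every library.

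With hairpin 1, mitosis genes of every role stood slightly below control. Of the 48 log2 fold changes, 47 were negative, beside 47.4% of all tested genes, and the median was -0.23, beside 0.012 over all tested genes. Only Pttg1, which encodes securin, was positive (0.0064, SE 0.14). In 24 genes every library labelled hairpin 1 lay below every control library, and in 0 genes above; over all tested genes 4.3% lay below and 4.09% above. At an unadjusted p under 0.05, 15 were lower and 0 higher, beside 1.32% and 1.85% of all tested genes.

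None of the 48 passed an adjusted p under 0.05 (Benjamini-Hochberg over 14193 genes, edgeR), and 0% of all tested genes did; DESeq2 and limma-voom also called 0 of the 48. The lowest p was that of Aurka (adjusted p = 0.9999, edgeR). Control replicate 3 was the highest library for 19 of the 48, and without it 7 in place of 15 were lower at an unadjusted p under 0.05. Over all tested genes this count fell too, from 188 of 14193 to 68 of 14610. Replicate 1 of hairpin 1, the library rich in fibroblast markers, was the lowest library for 29 genes. Without it 47 of 48 were still negative, 11 were lower at an unadjusted p under 0.05 and the median was -0.17. Over all tested genes 270 of 14477 were then lower at that level.

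**Figure D1:**
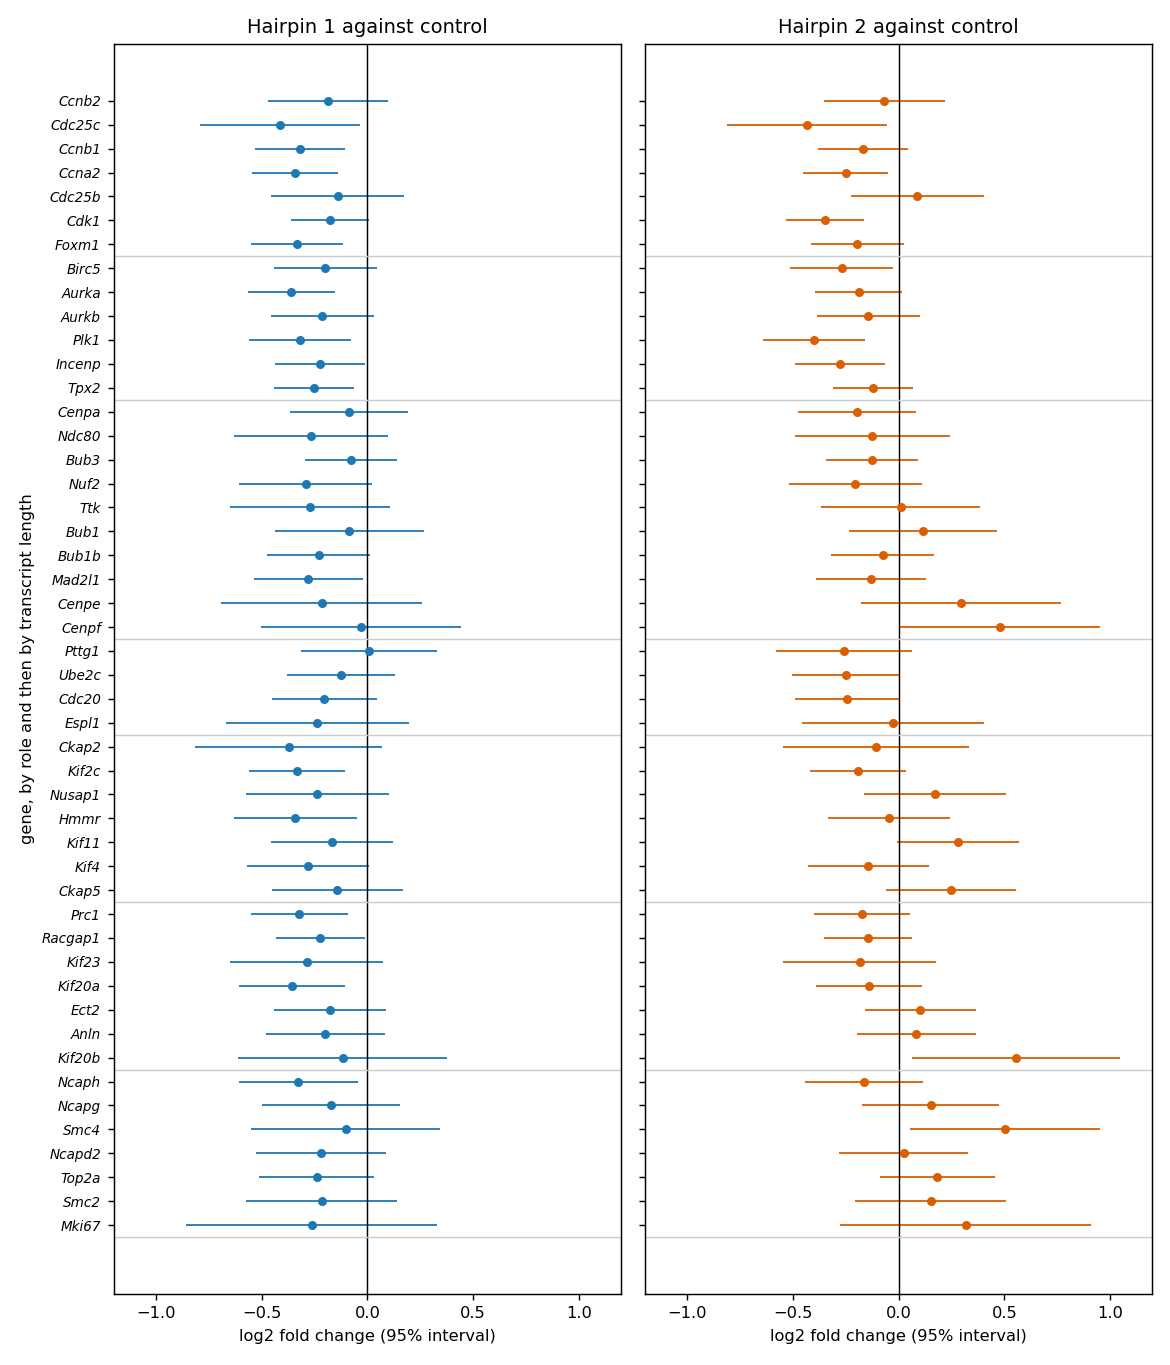
Log2 fold change of each of the 48 mitosis genes with its 95% interval, for the libraries labelled hairpin 1 (left) and hairpin 2 (right) against control, 3 libraries a group; genes stand by role, and within a role by transcript length, shortest at the top. On the left 47 of 48 points lie below 0; on the right 31 do, and the points drift to the right toward the longest genes of a role.

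With hairpin 2 the genes pointed both ways, and none passed the adjusted threshold of edgeR. Cdk1, Plk1 and Ccna2 had lower means than control, and Kif20b, Smc4 and Cenpf had higher ones. Of the 48 log2 fold changes, 31 were negative, beside 48.5% of all tested genes, and the median was -0.13, beside 0.012 over all. In 12 genes every hairpin 2 library lay below every control library, beside 10.2% of all tested genes, and in 1, Kif11, above, beside 10.6%. At an unadjusted p under 0.05, 6 were lower (Cdk1, Plk1, Incenp, Ccna2, Cdc25c and Birc5) and 3 higher (Kif20b, Smc4 and Cenpf), beside 6.27% and 8.14% of all tested genes.

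By edgeR 0 of the 48, and 0% of all tested genes, passed an adjusted p under 0.05; the lowest adjusted p was 0.2415. By DESeq2, 2 of the 48 passed, Cdk1 (log2 fold change -0.35, SE 0.085, adjusted p = 0.0087) and Plk1 (-0.41, SE 0.12, adjusted p = 0.0388), among 280 genes, 2.45% of those with an adjusted p; limma-voom called 0. Without replicate 2 of hairpin 2, the library rich in erythroid markers, 5 genes were lower and 0 higher at an unadjusted p under 0.05. Over all tested genes 534 were then lower and 579 higher, of 14567, in place of 890 and 1156 of 14193. The 3 higher genes also dropped to 0 without replicate 1 of hairpin 2, control replicate 1 or control replicate 2, and became 8 without replicate 3 of hairpin 2. In the same order, the higher genes over all tested genes were 1038 of 14646, 1282 of 14625, 655 of 14594 and 1292 of 14534. Without control replicate 3 the lower genes were 3, and over all tested genes 484 of 14610.

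**Figure D2:**
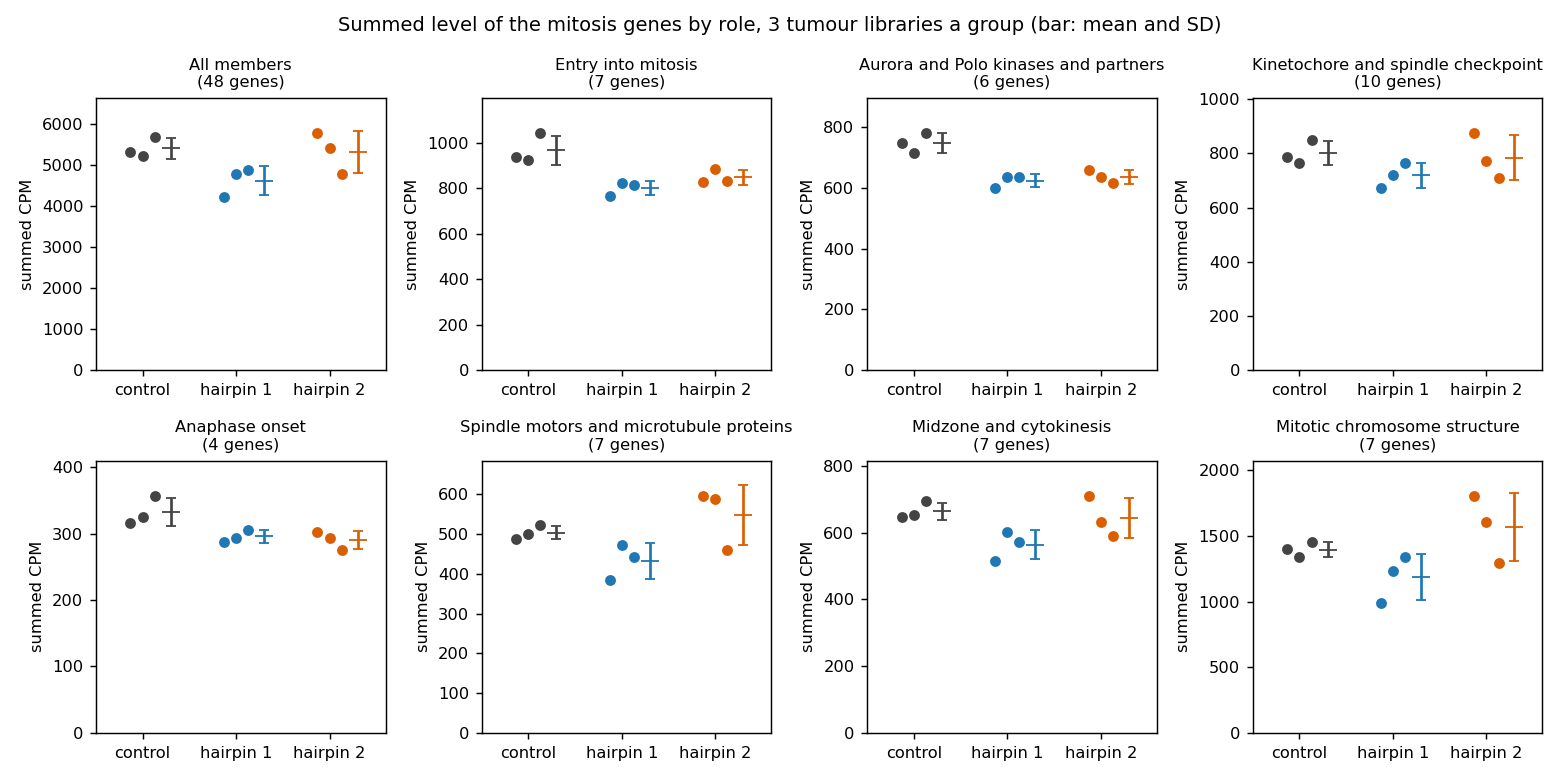
Summed CPM of the mitosis genes and of each of the 7 roles in the 9 libraries (points), with the mean and SD of each group of 3; axes start at 0. For entry into mitosis, for the Aurora and Polo group and for anaphase onset, every library of either hairpin lies below every control library, and for mitotic chromosome structure hairpin 2 replicate 1 is the highest at 1804 CPM.

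Of the genes of mitotic entry, 4 of 7 lay below every control library with both hairpins, beside 1.62% of all tested genes. The 7 genes summed to 935, 923 and 1041 CPM in control, 767, 822 and 814 with hairpin 1 and 829, 886 and 831 with hairpin 2, with no overlap between control and either hairpin. All 7 log2 fold changes were negative for hairpin 1 (median -0.32, 4 at an unadjusted p under 0.05), and 6 of 7 for hairpin 2 (median -0.20, 3 at that level), and none passed an adjusted p under 0.05 by edgeR. Over all tested genes, 47.4% were negative and 1.32% lower at that unadjusted level for hairpin 1. For hairpin 2 these shares were 48.5% and 6.27%. Cdk1, the mitotic kinase itself, stood at 168, 169 and 176 CPM in control, 150.1, 148 and 156 with hairpin 1 and 140.4, 130.4 and 133 with hairpin 2. The 3 groups did not overlap, and hairpin 2 was lowest: its log2 fold change was -0.35 (SE 0.084, adjusted p = 0.2415, edgeR), that is 78.5% of control, and that of hairpin 1 was -0.18 (SE 0.084).

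Ccna2 encodes cyclin A, the partner of Cdk1 before cyclin B takes over. It stood at 181, 184 and 208 CPM in control, 151, 151 and 149.9 with hairpin 1 and 164, 164 and 153 with hairpin 2, and all 6 hairpin values lay below all control values (-0.34, SE 0.091, and -0.25, SE 0.091, on the log2 scale). Foxm1, the transcription factor that drives the late wave of these genes, was at 195, 207 and 223 CPM in control, 160.2, 169 and 167 with hairpin 1 and 164, 195 and 187 with hairpin 2. It too lay below control in all 6 hairpin libraries, with log2 fold changes of -0.33 (SE 0.099) and -0.20 (SE 0.099).

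The B cyclins followed less closely. Ccnb1, cyclin B1, was at 186, 180.2 and 205 CPM in control and 143, 158 and 156 with hairpin 1, without overlap (log2 fold change -0.32, SE 0.096), and at 162, 181 and 164 with hairpin 2, where 1 library lay among the controls. Ccnb2, cyclin B2, was at 106, 82.8 and 103 CPM in control, 73.8, 94.4 and 88.3 with hairpin 1 and 94.9, 87.4 and 96.4 with hairpin 2, and its groups overlapped in both comparisons. Of the phosphatases that activate Cdk1, Cdc25c was the scarcest entry gene, at 14.3 to 20.2 CPM in control and 11.5 to 14.1 in the 6 hairpin libraries, a log2 fold change of -0.41 (SE 0.17) with hairpin 1 and -0.43 (SE 0.17) with hairpin 2. Cdc25b overlapped control with both hairpins, and with hairpin 2 it was the 1 entry gene with a positive value (0.087, SE 0.14).

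The Aurora and Polo kinases and their partners were the role in which control and hairpin libraries separated most fully: for all 6 genes, every library of either hairpin lay below every control library. The same held for 1.62% of all tested genes. Since the roles were chosen with earlier results of these data known, this order of roles is a description only. Their sums were 748, 713 and 779 CPM in control, 599, 636 and 635 with hairpin 1 and 660.4, 636 and 615 with hairpin 2. The median log2 fold change was -0.24 for hairpin 1 and -0.23 for hairpin 2, and the latter was -0.17 once each library's trend in length and GC content, estimated over all genes, was removed. With that removal the hairpin 2 values of the 6 genes ran from -0.26 (Tpx2) to -0.0025 (Aurkb), and Aurka was at -0.069. Plk1, the Polo kinase of centrosome maturation and checkpoint recovery, was at 162, 142 and 168 CPM in control, 115, 137 and 126 with hairpin 1 and 129, 114 and 114 with hairpin 2. Its log2 fold change was -0.32 (SE 0.11) and -0.40 (SE 0.11; edgeR adjusted p = 0.2415), and the hairpin 2 value was 75.7% of control.

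Aurka, the Aurora kinase of the spindle poles, was at 89.5, 84.95 and 95.7 CPM in control, 73.3, 68.9 and 68.2 with hairpin 1 and 77.7, 82.5 and 76.6 with hairpin 2. Hairpin 1 was lower than hairpin 2 in every library, with log2 fold changes against control of -0.36 (SE 0.093) and -0.19 (SE 0.093). Aurkb, Incenp and Birc5 encode 3 parts of the chromosomal passenger complex: its kinase, its scaffold and survivin. Aurkb was at 135, 130.2 and 133 CPM in control, 103, 113 and 127 with hairpin 1 and 129, 124 and 107 with hairpin 2. Incenp was at 106, 102 and 107 CPM in control, 81.6, 92.3 and 96.3 with hairpin 1 and 88.9, 88.6 and 83.2 with hairpin 2.

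Birc5 was at 88.8, 86.2 and 98.9 CPM in control, 85.97, 75.2 and 77.6 with hairpin 1 and 74.9, 69.1 and 83.2 with hairpin 2. The complex's 3 genes were thus below control in all 6 hairpin libraries, with the gap between the lowest control and the highest hairpin library smallest for Birc5. The hairpin 2 log2 fold changes were -0.14 (SE 0.11) for Aurkb, -0.28 (SE 0.096) for Incenp and -0.27 (SE 0.11) for Birc5. Tpx2, which activates Aurora A on microtubules, differed least of the 6 with hairpin 2 (-0.12, SE 0.085).

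**Figure D3:**
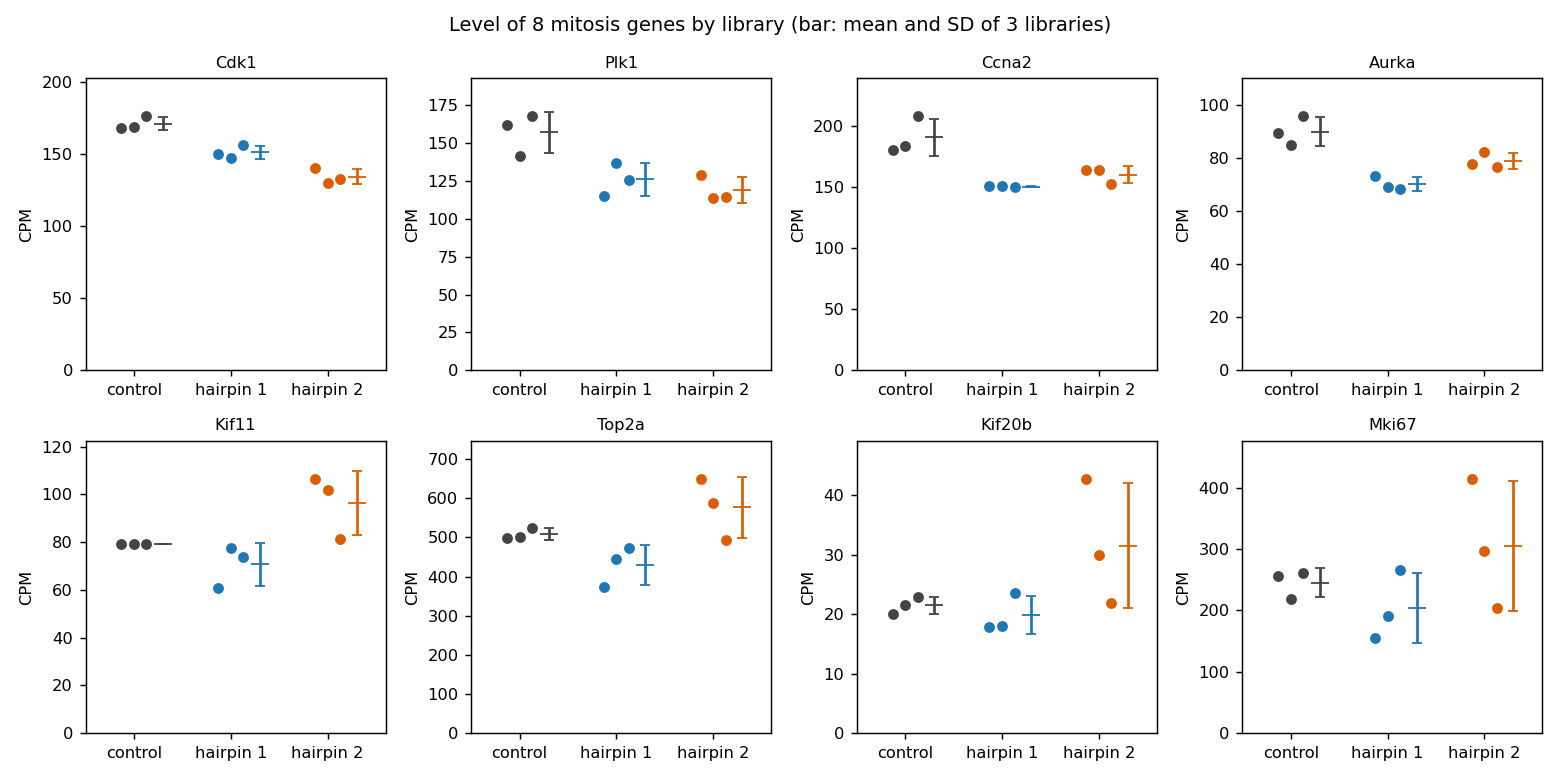
CPM of 8 mitosis genes in the 9 libraries (points), with the mean and SD of each group of 3; axes start at 0. Cdk1, Plk1, Ccna2 and Aurka lie below control in all 6 hairpin libraries, Kif11 lies below control with hairpin 1 and above it with hairpin 2, and Kif20b and Mki67 are highest in hairpin 2 replicate 1.

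Kinetochore and spindle checkpoint genes mostly overlapped control. The 10 genes summed to 785, 765 and 849 CPM in control, 672, 719 and 764 with hairpin 1 and 873, 771 and 707 with hairpin 2. All 10 log2 fold changes were negative for hairpin 1 (median -0.22), but only Mad2l1, which encodes the checkpoint protein Mad2, was below every control: it was at 99.9, 114 and 124 CPM in control, 95.3, 87.2 and 96.4 with hairpin 1 and 115, 102 and 92.8 with hairpin 2 (log2 fold change -0.28, SE 0.12, for hairpin 1). With hairpin 2, 6 were negative and 4 positive (median -0.10).

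The checkpoint kinase gene Bub1 was at 65.9, 76.4 and 79.5 CPM in control, 61.9, 77.5 and 69.6 with hairpin 1 and 97.7, 78.8 and 63.9 with hairpin 2, so hairpin 2 held both the highest library and 1 below all controls. Bub1b, which encodes BubR1, was at 125, 112 and 112 CPM in control, 86.5, 112 and 99.6 with hairpin 1 and 112, 111 and 109 with hairpin 2, and replicate 1 of hairpin 1 was its lowest library. Bub3, their binding partner, varied least of all 48 genes: its highest library was 1.22 times its lowest.

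Among the centromere genes, the 2 with very long transcripts had higher means than control with hairpin 2, and Cenpa had a lower one. With the trend in length and GC content removed, this contrast narrowed. The hairpin 2 log2 fold changes were then 0.093 (SE 0.16) for Cenpf, -0.041 (SE 0.19) for Cenpe and -0.089 (SE 0.12) for Cenpa. Cenpa, the histone H3 variant that marks centromeres, was at 77.4, 61.5 and 79.4 CPM in control, 69.9, 62.5 and 73.2 with hairpin 1 and 69.2, 62.3 and 59.04 with hairpin 2, overlapping throughout. Cenpe, a giant kinetochore motor, was at 30.2, 33.7 and 34.9 CPM in control, 24.4, 29.5 and 31.1 with hairpin 1 and 55.6, 36.9 and 28.8 with hairpin 2. Cenpf, a large kinetochore coiled-coil protein, was at 56.5, 53.9 and 69.6 CPM in control, 49.2, 49.2 and 77.8 with hairpin 1 and 100, 85.05 and 65.7 with hairpin 2.

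For both large genes hairpin 2 replicate 1 was the highest of the 9 libraries and the groups overlapped. The hairpin 2 log2 fold change was 0.29 (SE 0.21) for Cenpe and 0.48 (SE 0.21, adjusted p = 0.341, edgeR) for Cenpf, and the latter was 0.33 without that library. Ttk, Ndc80 and Nuf2, a checkpoint kinase and 2 parts of the complex that grips microtubules, overlapped control with both hairpins, with log2 fold changes of -0.27 to -0.29 for hairpin 1 and -0.21 to 0.0097 for hairpin 2.

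Genes of anaphase onset were lower in sum with both hairpins, without overlap: 316, 324 and 356 CPM in control, 288, 293 and 306 with hairpin 1 and 302, 293 and 276 with hairpin 2 over 4 genes. Gene by gene most overlapped control. Cdc20, the activator of the anaphase promoting complex, was at 103, 107 and 119 CPM in control, 97.5, 97.7 and 90.8 with hairpin 1, all lower, and 105, 90.7 and 82.4 with hairpin 2, of which 1 lay among the controls. Ube2c, the complex's ubiquitin-conjugating enzyme, was at 107, 129.5 and 136 CPM in control, 122, 105 and 115 with hairpin 1 and 96.95, 105 and 111 with hairpin 2.

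Pttg1, securin, was at 22.3, 17.1 and 21.9 CPM in control, 22.7, 20.3 and 18.6 with hairpin 1 and 17.1, 17.2 and 17.1 with hairpin 2. The 3 hairpin 2 values nearly coincided and lay below every library labelled hairpin 1, while control replicate 2 was as low. Espl1, separase, the protease that securin holds in check, was at 83.2, 70.2 and 79.7 CPM in control, 45.6, 70.6 and 81.8 with hairpin 1 and 83.2, 80.6 and 64.9 with hairpin 2, and only replicate 1 of hairpin 1 stood far from the others. The log2 fold changes of Cdc20, Ube2c and Pttg1 with hairpin 2 lay between -0.26 and -0.24, with SE of 0.11 to 0.15, and that of Espl1 was -0.028 (SE 0.19). With the trend in length and GC content removed, they were -0.040 for Cdc20, -0.10 for Ube2c, -0.14 for Pttg1 and -0.17 for Espl1.

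Spindle motor and microtubule genes all had negative log2 fold changes with hairpin 1 (7 of 7, median -0.28) and pointed both ways with hairpin 2 (4 of 7 negative, median -0.046). The 7 genes summed to 489, 501 and 522 CPM in control, 384, 473 and 442 with hairpin 1 and 596, 589.5 and 461 with hairpin 2, where the 2 high sums went with Ckap5 and Kif11. Kif11, the motor Eg5 that pushes spindle poles apart, was at 79.4, 79.4 and 79.4 CPM in control, 60.6, 77.5 and 73.8 with hairpin 1 and 106, 102 and 81.2 with hairpin 2. The controls hardly differed, and the 2 hairpins lay on opposite sides of them: the log2 fold change was -0.17 (SE 0.13) for hairpin 1 and 0.28 (SE 0.13) for hairpin 2, which became 0.074 (SE 0.099) with the trend in length and GC content removed.

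Kif4, a chromosome-bound motor of the midzone, was at 48.5, 49.01 and 58.96 CPM in control, 40.2, 47.1 and 41.6 with hairpin 1, all lower, and 52.96, 46.8 and 41.98 with hairpin 2, which overlapped control. Kif2c, the microtubule depolymerase MCAK, was below control in all 6 hairpin libraries (53.1 ± 3.95 CPM in control, 42.1 ± 1.53 with hairpin 1 and 46.4 ± 2.01 with hairpin 2, mean ± SD, n = 3 each). Nusap1, Hmmr, Ckap2 and Ckap5, which bind or bundle microtubules, had log2 fold changes of -0.37 to -0.14 with hairpin 1 and -0.11 to 0.25 with hairpin 2. Of these, Ckap5, the polymerase XMAP215, had the most positive difference with hairpin 2, at 232 ± 38.9 CPM beside 196 ± 4.37 in control (mean ± SD, n = 3 each).

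Midzone and cytokinesis genes all had negative log2 fold changes with hairpin 1 (7 of 7, median -0.22), and 4 of 7 did with hairpin 2 (median -0.14). The 7 genes summed to 647, 653 and 694 CPM in control, 516, 601 and 574 with hairpin 1 and 709.8, 633 and 589 with hairpin 2. Kif20a, the cytokinesis motor MKLP2, was at 53.8, 49.3 and 58.2 CPM in control, 37.7, 42.4 and 45.8 with hairpin 1 and 51.02, 47.2 and 48.1 with hairpin 2. Hairpin 1 lay wholly below control (-0.36, SE 0.11), and hairpin 2 overlapped it (-0.14, SE 0.11).

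Its relative Kif20b was at 19.99, 21.5 and 22.9 CPM in control, 17.9, 18.03 and 23.5 with hairpin 1 and 42.7, 30 and 21.8 with hairpin 2. It had the largest positive log2 fold change of the 48 with hairpin 2, 0.55 (SE 0.22, adjusted p = 0.302, edgeR), which was 0.27 without replicate 1 and 0.24 (SE 0.19) with the trend in length and GC content removed. The ratio of Kif20b to Kif20a CPM was 0.372 to 0.436 in control, 0.425 to 0.512 with hairpin 1 and 0.838, 0.636 and 0.453 with hairpin 2. Among the others, Prc1, which bundles midzone microtubules, was below control in every library with hairpin 1 (-0.32, SE 0.10), and Racgap1, a centralspindlin part, was so with both hairpins (-0.22, SE 0.095, and -0.15, SE 0.095). Anln, Ect2 and Kif23 had hairpin 2 log2 fold changes of -0.18 to 0.10 and overlapped control.

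Genes of mitotic chromosome structure mostly had positive log2 fold changes with hairpin 2, but this turned with the trend in length and GC content removed, when 6 of 7 were negative (median -0.034). The 7 genes summed to 1399, 1338 and 1451 CPM in control, 993, 1235 and 1339 with hairpin 1 and 1804, 1610 and 1296 with hairpin 2, and 6 of 7 log2 fold changes were positive with hairpin 2 (median 0.15), while 7 of 7 were negative with hairpin 1 (median -0.22). Replicate 3 of hairpin 2 lay below every control in this sum, and of the 7 genes only Smc4 had an unadjusted p under 0.05 with hairpin 2. Top2a, the topoisomerase that untangles sister chromatids, was at 498, 502 and 525 CPM in control, 373, 444 and 474 with hairpin 1 and 649, 589 and 493 with hairpin 2. Hairpin 1 lay below every control (-0.24, SE 0.12), and 2 hairpin 2 libraries lay above every control (0.18, SE 0.12).

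Mki67, the proliferation marker Ki-67 that coats mitotic chromosomes, was at 256, 218 and 262 CPM in control, 155, 191 and 267 with hairpin 1 and 414, 297 and 204 with hairpin 2. Its highest library was 2.67 times its lowest, the widest range of the 48, and its groups overlapped in both comparisons. Smc4, a core ATPase of condensin, was at 69.2, 78.03 and 88.6 CPM in control, 63.3, 62.96 and 93.3 with hairpin 1 and 136, 113 and 85.2 with hairpin 2, a log2 fold change of 0.50 (SE 0.20, adjusted p = 0.302, edgeR) with hairpin 2 and 0.34 without its replicate 1. Of the other condensin subunits with hairpin 2, Smc2 was at 0.15, Ncapg at 0.15, Ncapd2 at 0.023 and Ncaph at -0.16 (SE 0.13 to 0.16). With the trend in length and GC content removed, they were at -0.14, -0.0051, -0.049 and -0.13 (SE 0.11 to 0.13). Differences between the subunits were not tested.

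The 12 genes that lay below every control library in all 6 hairpin libraries were Cdk1, Ccna2, Cdc25c and Foxm1 (4 of 7 entry genes), Aurka, Aurkb, Plk1, Incenp, Birc5 and Tpx2 (all 6 of the Aurora and Polo group), Kif2c and Racgap1. Over all tested genes 1.62% did so. For the mean of both hairpins against control, 40 of 48 log2 fold changes were negative, beside 47.8% of all tested genes, with a median of -0.18. At an unadjusted p under 0.05, 16 were lower, beside 3.36% of all tested genes, and 0 higher. None passed an adjusted p under 0.05 by edgeR (0% of all tested genes; lowest adjusted p 0.674), DESeq2 or limma-voom. The smallest p was that of Plk1 (log2 fold change -0.36, SE 0.093, edgeR adjusted p = 0.674). Without control replicate 3, 5 in place of 16 were lower at an unadjusted p under 0.05. Over all tested genes 169 of 14610 were then lower, in place of 477 of 14193.

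**Figure D4:**
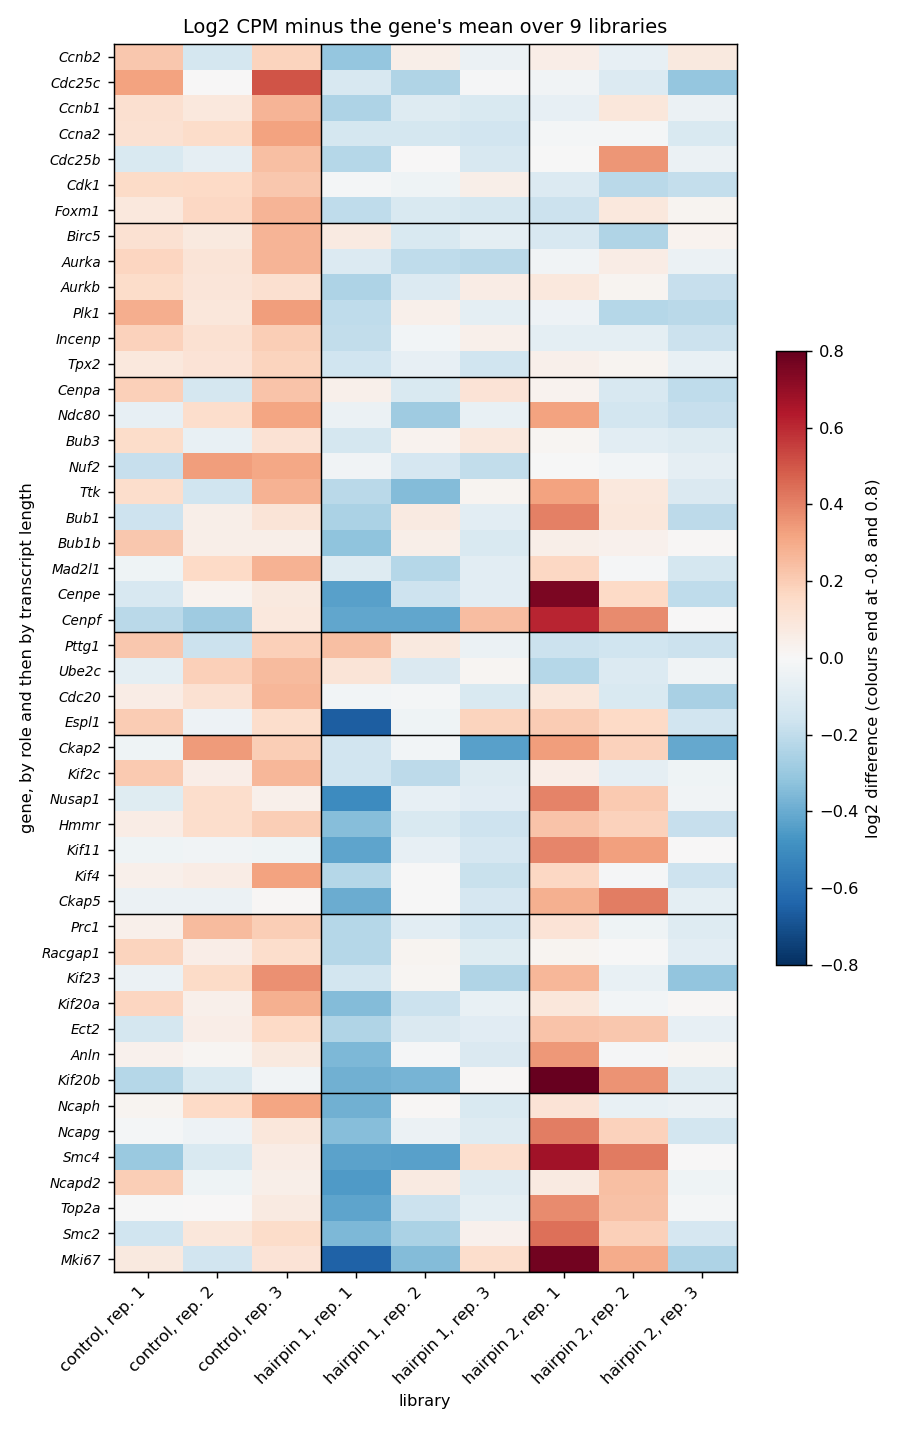
Log2 CPM of each mitosis gene (rows, by role and then by transcript length, shortest at the top of a role) minus its mean over the 9 libraries (columns); red is above and blue below that mean, and the colours end at 0.8 either way. Hairpin 1 replicate 1 is blue in 44 of 48 rows, control replicate 3 is blue in 2, and hairpin 2 replicate 1 is reddest in the long genes.

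The split with hairpin 2 went with transcript length, and the hairpin 2 libraries also differed in their trend with GC content. In the 16 genes with the shortest transcripts (947 to 2695 bases) all 16 log2 fold changes were negative, with a median of -0.19. In the middle 16 (2842 to 4316 bases) 9 were negative, with a median of -0.061, and in the longest 16 (4365 to 11130 bases) 6 were negative, with a median of 0.12. All tested genes in the same length ranges had medians of -0.11, 0.030 and 0.22, so longer transcripts were also higher with hairpin 2 among all tested genes, and in each range the mitosis genes' median was lower than that of all genes. Across genes, Spearman's rho of length with the log2 fold change was 0.66 across the 48 genes and 0.38 across 14106 tested genes; genes share the same libraries and are not replicates. With hairpin 1 the medians of the 3 ranges were -0.24, -0.23 and -0.22, and rho was 0.090.

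The tilt showed in single libraries too. The sum of the longest 16 was 1.60 to 1.68 times that of the shortest 16 in control, 1.48 to 1.74 times in the libraries labelled hairpin 1, and 2.14, 2.07 and 1.78 times with hairpin 2. Over tested genes, Spearman's rho of GC content with a library's deviation from each gene's mean also differed. It was 0.076 to 0.12 in control, 0.090 to 0.15 with hairpin 1 and -0.38, -0.20 and -0.024 with hairpin 2. The trend of all genes in length and GC content was then removed from each library. Both were removed at once, so their parts were not told apart. Then 40 of 48 hairpin 2 log2 fold changes were negative, beside 47.7% of all tested genes, and the median was -0.10. At an unadjusted p under 0.05, 7 were lower and 0 higher, beside 4.52% and 4.83% of all tested genes. Cdk1, with 4375 bases on the annotated transcript used here, moved to -0.48 (SE 0.084), Plk1 to -0.23 (SE 0.12), Kif20b to 0.24 (SE 0.19), Smc4 to 0.30 (SE 0.18) and Mki67 to -0.031 (SE 0.21). Cenpf moved to 0.093 (SE 0.16). The 7 lower genes were Cdk1, Ccna2, Foxm1, Incenp, Tpx2, Mad2l1 and Kif4, of which 3 were among the 6 before. Mad2l1 moved from -0.13 to -0.49 (SE 0.11), a value that rests on the 7557 bases of the annotated transcript used here. Values nearer 0 were found for Aurka (-0.069), Aurkb (-0.0025), Birc5 (-0.13) and Cdc20 (-0.040), and Ccnb2 turned to 0.044. In all, 10 positive values turned negative, among them those of Top2a (-0.034), Ckap5 (-0.035), Cenpe (-0.041) and Smc2 (-0.14), and 1 negative value turned positive. What made longer transcripts higher in these libraries was not tested.

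**Figure D5:**
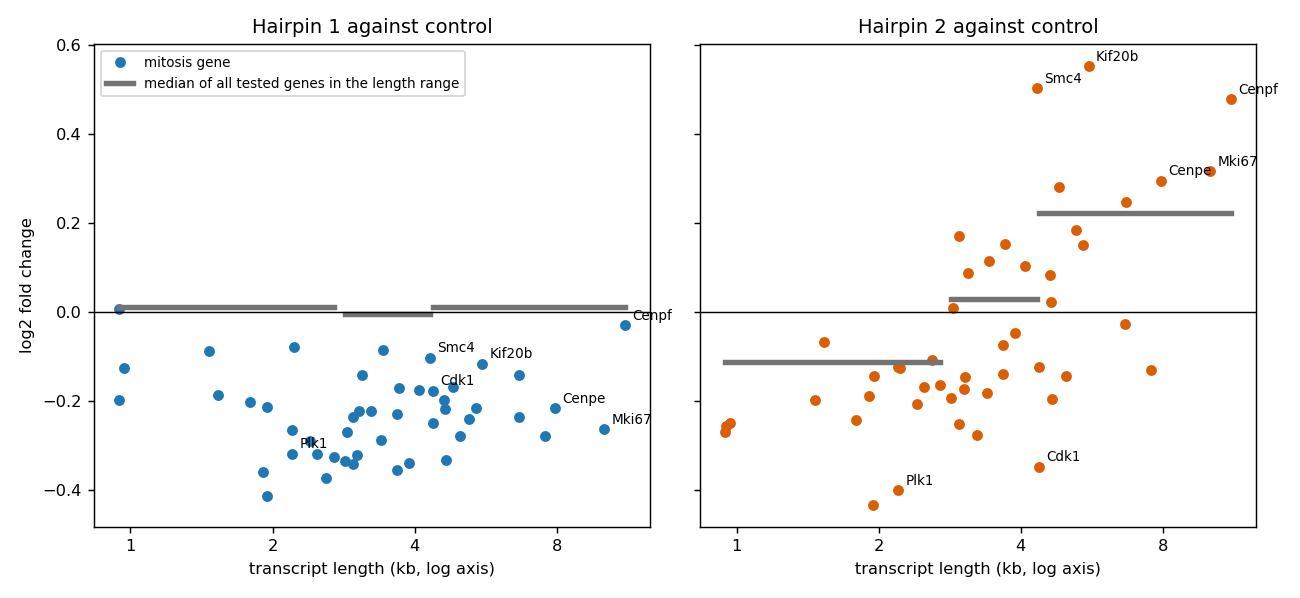
Log2 fold change of the 48 mitosis genes (points) against transcript length in kilobases (log axis), for the libraries labelled hairpin 1 (left) and hairpin 2 (right) against control; grey bars are the medians of all tested genes in the same 3 length ranges. With hairpin 2 points and bars climb from the short to the long genes, from -0.11 to 0.22 for the bars, while with hairpin 1 the points lie below level bars.

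Set directly against each other, hairpin 2 was above the libraries labelled hairpin 1 in most mitosis genes. Of 48 log2 fold changes 10 were negative, beside 49.8% of all tested genes, and the median was 0.15. At an unadjusted p under 0.05, 0 were lower and 12 higher (Kif11, Top2a, Kif20b, Smc4, Ckap5, Nusap1, Cenpe, Cenpf, Ect2, Smc2, Hmmr and Anln), beside 5.23% and 6.43% of all tested genes. Every hairpin 2 library lay below every library labelled hairpin 1 in 2 genes, Cdk1 and Pttg1, and above in 10, beside 7.67% and 8.31%. The smallest p values were those of Kif11 (0.45, SE 0.13), Top2a (0.42, SE 0.12) and Kif20b (0.67, SE 0.22).

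The lowest adjusted p among the 48 was 0.375, and 0% of all tested genes passed by edgeR; DESeq2 and limma-voom also called 0 of the 48. The count of 12 higher genes changed with single libraries: it was 3 without replicate 1 of hairpin 1, 2 without replicate 1 of hairpin 2, 6 without replicate 2 of either hairpin or of control, and 0 without both libraries that stood apart. Over all tested genes the higher genes also fell, from 912 of 14193. They were 482 of 14477 without replicate 1 of hairpin 1 and 708 of 14646 without replicate 1 of hairpin 2. Without replicate 2 of hairpin 1, hairpin 2 or control they were 744 of 14632, 364 of 14567 and 771 of 14594. Without both libraries that stood apart they were 266 of 14306. With the length and GC trend removed, 1 was lower (Cdk1) and 5 higher (Aurka, Kif11, Nusap1, Smc4 and Top2a), beside 2.94% and 2.68% of all tested genes, and the median was 0.12.

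Levels of different genes were compared as CPM per kilobase of transcript, averaged over the 9 libraries. The highest mean was that of Ube2c (118), and the lowest was that of Cenpe (4.29). After Ube2c came Bub3 (99.1), Top2a (96.8), Birc5 (86.8) and Ncapd2 (71.1), and the lowest after Cenpe were Kif20b (4.36), Cenpf (6.06), Ttk (7.26) and Cdc25c (7.43). The order of the group means at both ends changed with the group, although single libraries did not all follow it. The trend in length and GC content was not removed from these values. Top2a stood below Ube2c and Bub3 in control (97.3 beside 128 and 104), and with hairpin 2 it was highest (110.5), above Ube2c (107.9) and Bub3 (95.2). In hairpin 2 replicate 3, however, Top2a stood below Ube2c. With the trend in length and GC content removed, the hairpin 2 log2 fold change was -0.034 for Top2a and -0.10 for Ube2c. At the low end the mean of Kif20b lay below that of Cenpe in control (3.86 and 4.16) and above it with hairpin 2 (5.66 and 5.11). With hairpin 1 the means were nearly equal (3.56 and 3.58), and the order differed between libraries. The cyclins Ccnb1 (68.5), Ccnb2 (60.04) and Ccna2 (56.4) stood above their kinase Cdk1 (34.8), whose annotated transcript includes a long form, which lowers its value per kilobase.

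The spread over libraries was modest for most genes. The highest library was a median of 1.48 times the lowest, beside 1.49 over 7630 tested genes with a mean of at least 20 CPM. The ratio was above 2 for Mki67, Kif20b, Cenpe, Smc4 and Cenpf, which are among the genes that were highest in hairpin 2 replicate 1. The highest library was a control for 28 of the 48 genes and hairpin 2 replicate 1 for 16, and the lowest was a library labelled hairpin 1 for 39. All 48 together made up 5318, 5218 and 5693 CPM in control, 4219, 4780 and 4874 in the libraries labelled hairpin 1 and 5775, 5419 and 4775 with hairpin 2. The fibroblast marker sums given above were higher in 2 of the 3 libraries labelled hairpin 1 than in any control, and melanoma marker sums overlapped between the groups (25416 to 32965 CPM in control, 25459 to 31347 with hairpin 1). Their part in the lower mitosis values was not tested.

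Other genes of cell division, taken from lists by role, gave a partly similar picture. Of all tested genes, 47.4% were negative with hairpin 1, and 1.32% were lower and 1.85% higher at an unadjusted p under 0.05. For hairpin 2 the shares were 48.5%, 6.27% and 8.14%. Of 28 other spindle and cytokinesis genes, 27 were negative with hairpin 1 (median -0.28; 11 lower and 0 higher at an unadjusted p under 0.05) and 19 with hairpin 2 (median -0.13; 6 lower and 0 higher). Of 36 other kinetochore and centromere genes, 33 were negative with hairpin 1 (median -0.20; 5 lower) and 22 with hairpin 2 (median -0.10; 6 lower). In that list Cdca8, borealin, the fourth part of the chromosomal passenger complex, had the lowest p with hairpin 2. It was at 78.5, 80.1 and 85.6 CPM in control, 74.6, 69.01 and 68.6 with hairpin 1 and 62.9, 59.5 and 56.05 with hairpin 2, in full separation of the 3 groups (-0.45, SE 0.096, edgeR adjusted p = 0.2415).

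Of 22 other mitotic kinases and regulators, 19 were negative with hairpin 1 (median -0.16) and 15 with hairpin 2 (median -0.14). Of 35 DNA replication genes, which act before mitosis, 34 were negative with hairpin 1 (median -0.20; 14 lower and 0 higher) and 32 with hairpin 2 (median -0.22; 11 lower and 0 higher). The lowest p in that list with hairpin 2 was that of Chaf1b, a histone chaperone subunit, at 113, 114 and 113 CPM in control, 92.9, 105 and 82.9 with hairpin 1 and 79.9, 64.7 and 68.6 with hairpin 2 (-0.67, SE 0.12, edgeR adjusted p = 0.2415).

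Genes of the anaphase promoting complex had medians near 0 (-0.035 and -0.065), with 11 of 17 negative under either hairpin. With hairpin 2 single genes ran from -0.28 (Ube2s) to 0.53. In 5 of 17 every hairpin 2 library lay below every control library, and in 0 above, beside 10.2% and 10.6% of all tested genes. Of the cohesin genes, 10 of 11 were positive with hairpin 2 (median 0.30), with 4 higher and 1 lower at an unadjusted p under 0.05, beside 8.14% and 6.27% of all tested genes. With the trend in length and GC content removed, 8 of 11 were positive (median 0.028) and 0 were higher at that level. Pds5b, a cohesin regulator, had the lowest p there, at 67.9, 57.97 and 58.96 CPM in control and 94.4, 90.5 and 74.5 with hairpin 2 (0.49, SE 0.13, edgeR adjusted p = 0.2415). The 1 negative cohesin gene was Cdca5, sororin. Of 3 condensin II genes, 2 were positive with hairpin 2, and 1, Ncaph2 (-0.23), was lower at an unadjusted p under 0.05. With the trend in length and GC content removed, 1 was positive (median -0.032) and 0 were lower at that level. None of these genes passed an adjusted p under 0.05 by edgeR in any comparison.

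Of the 48 mitosis genes, 15 share exonic sequence with a neighbouring gene of GENCODE M21, 11 of them on the opposite strand: Ccna2, Cdc25b, Cdc25c, Plk1, Cdc20, Ube2c, Kif4, Nusap1, Kif20a, Prc1 and Ncapg. The other 4 are Foxm1, Ckap5, Ncapd2 and Top2a. The strand setting of the counting is not given in the sources used here, so reads of these genes and of their neighbours may not be told apart.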

How the data were processed

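Bulk RNA from 9 tumours' libraries (3 groups of 3, named by the sample titles) was extracted with TRIzol and sequenced on an Illumina instrument, per the labels' protocols. Each deposited file holds the authors' whole-number read counts, 1 column by gene symbol. Although the symbols are those of mouse genes, the builds in the submitters' processing notes are human (GRCh38, hg38); the tools there are STAR 2.7.0d and Cufflinks. Counter, annotation and strand setting: not given in the sources used here. Libraries held 15322163 to 17342554 counts, which sets the precision of each value.

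The test was the robust quasi-likelihood test of edgeR 4.0.16 (R 4.3.3), fitted to all 9 libraries after TMM scaling and a filterByExpr filter with a minimum count of 10 and a minimum total of 15. Control was compared with each hairpin and with the mean of both, and the hairpins with each other, with Benjamini-Hochberg adjustment over all 14193 tested genes and a threshold of 0.05. CPM values use TMM-scaled library sizes. Full separation of 2 groups' libraries was read beside the same share of all genes, since an exact two-sided permutation of 3 against 3 libraries cannot go below 0.1. Lists are described by counts and medians only. Lengths and GC contents are those of the best APPRIS-ranked transcript in GENCODE M21, the longest where ranks tied; the trends were removed with splines of 4 degrees of freedom. Promoter windows are RefSeq's (GRCm38.p6).

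The 48 genes, their roles and the other lists were chosen with earlier results of these data known. Values in every library are given for 27 genes: the leading genes of each role and the 3 of smallest p in each contrast. The other 21 are given by ranges and counts. Genes of other lists are named as that of smallest p in a contrast; Cdca5 was named after its values were seen.

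Alternatives were other scalings, other count filters, DESeq2 1.42.0, limma-voom (limma 3.58.1), edgeR without the robust option, a fit restricted to the groups compared, the replicate number as a block, the trend removal and leaving out each library. Leaving out both libraries that stood apart was added after seeing the data. The edgeR fit was tested on simulated counts. The chi-square of 2 libraries' counts, divided by its degrees of freedom, was 20.1 to 71.6 within groups, so none was counted as a second deposit of another; the lowest of all pairs, control replicate 1 with hairpin 1 replicate 3, was 10.4. Same-numbered libraries did not deviate together (correlations of -0.41 to 0.14 over all genes), so replicate numbers were not taken to pair them.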

Additional observations from a re-analysis of the deposited data

Results flagged for a closer look

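Kif11, the gene of the spindle motor Eg5, was the 1 mitosis gene in which every library labelled hairpin 1 lay below every control and every hairpin 2 library above. Of all tested genes, 4.3% lay below every control with hairpin 1 and 10.6% lay above with hairpin 2. The share of all tested genes that did both is not given here, so how unusual this pattern is cannot be told. The 2 log2 fold changes of Kif11, which share the control libraries, were -0.17 (SE 0.13) and 0.28 (SE 0.13). Their difference, tested as hairpin 2 against hairpin 1, was 0.45 (SE 0.13, adjusted p = 0.375, edgeR), so it did not pass the adjusted threshold. After removal of each library's trend in length and GC content the difference was 0.24. The hairpin 2 value against control was then 0.074 (SE 0.099).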

How the results depend on the processing

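Which mitosis genes passed an adjusted p under 0.05 changed in 1 setting: with DESeq2, 2 (Cdk1 at -0.35 and Plk1 at -0.41) passed for hairpin 2 against control. In all other settings 0 passed in each comparison. For the genes at an unadjusted p under 0.05 in a comparison, 1128 values were recomputed; 0 changed sign, and only those of Cdk1 and Plk1 with DESeq2 passed the threshold. Over all 48 genes, 119 of 4176 recomputed values changed sign: 53 of 384 with the length and GC trend removed, 51 of 1728 with 1 library left out, 10 of 192 without both libraries that stood apart and 5 of 1872 in the other settings. With that trend removed, 11 of 48 changed sign for hairpin 2 against control and 0 for hairpin 1 against control. Counts at an unadjusted p under 0.05 moved more. For hairpin 2 against hairpin 1, 12 became 7 with a replicate block, 6 with the length and GC trend removed, 3 with both, 6 in a fit of only the groups compared and 0 without the 2 libraries that stood apart. Over all tested genes 1655 became 1141, 797, 502, 1276 and 537 in the same settings. For hairpin 2 against control, 9 became 5 with the trend removed and the replicate block, and over all tested genes 2046 became 928. Fitting the replicate number as a block gave 11 for hairpin 1, 6 for hairpin 2 and 12 for the mean of both, in place of 15, 9 and 16, and the numbers share no stated origin. Over all tested genes the block gave 287, 1498 and 701, in place of 450, 2046 and 1034. Leaving out each library in turn gave 7 to 18 for hairpin 1, 5 to 12 for hairpin 2, 2 to 16 between the hairpins and 5 to 18 for the mean of both. Over all tested genes these ranges were 206 to 578, 1113 to 2442, 738 to 2432 and 418 to 1497. Each mitosis gene had 179 to 10344 counts in each library, and every comparison rests on 3 libraries a group.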
